A study of Homo sapiens with 12 samples.

Results

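The genes described here are those whose symbol is IFT, BBS or CEP followed by a number, with CEP55 left out, which gives 58 of the 63241 genes in the deposited count table: 16 IFT, 8 BBS and 34 CEP genes. They encode parts of the primary cilium and of the centrosome at its base. RNA was sequenced from 2 human medulloblastoma cell lines with wild-type genotype labels, ONS76 and DAOY, in 4 groups of 3 libraries each. These were ONS76 under fluid shear stress (FSS) for 18 h, ONS76 kept static, DAOY under FSS for 18 h and DAOY kept static. All cells were on 6-well plates in aCSF, an artificial cerebrospinal fluid, and FSS came from an orbital shaker at 100 rpm. Shear and any other effect of shaking cannot be told apart. The design calls the libraries biological replicates without saying how cultures were kept apart, so each p-value reflects library-to-library spread, which may be partly technical. In bulk RNA, fewer cells of a kind and less RNA per cell cannot be told apart.

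The primary cilium is a single antenna-like projection that most vertebrate cells build while they are not dividing. Its core grows from the older of the centrosome's 2 centrioles, and it is taken apart again before mitosis, when the centrioles are needed at the spindle poles. Intraflagellar transport (IFT) trains carry cargo along it: the IFT-B complex moves outward with kinesin-2, and the IFT-A complex takes part in the return with dynein-2. The BBSome, a coat of Bardet-Biedl syndrome (BBS) proteins, moves membrane proteins out of the cilium, and chaperonin-like BBS proteins help to assemble it. CEP genes encode centrosomal proteins with roles in centriole duplication, in the appendages that anchor the cilium, in the transition zone at its neck and in the satellites around it. In medulloblastoma the cilium is best known as the place where Hedgehog signals are processed.

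Library totals were 38.1 to 49.3 M counts, and the 58 genes held 0.141 to 0.165% of them. Of the 58 genes, 50 had counts, and all 50 entered the test, which covered 19631 genes. Their mean level over the 12 libraries was 3.66 to 105 CPM (counts per 1e6 counts of the library, scaled by the TMM method), with a median of 25.4 CPM against 7.72 CPM for all tested genes. The other 8 (BBS1, BBS5, CEP15, CEP19, CEP43, CEP63, CEP76 and IFT80) were listed at 0 in all 12 libraries. In the GENCODE 29 annotation, another gene overlapped the exons of 4 of these 8 on the same strand, against 3 of the 50 genes with counts. Since 2851 of 19855 protein-coding genes were at 0 throughout, and the counting rule for overlapping genes is not given in the sources used here, a listed 0 was not read as a silent gene. Within the 50, reads of CEP170 may be split with its near-identical copy CEP170P1, which had 335 to 672 counts per library. IFT122P3, a copy of IFT122 by its symbol, had 107 to 129 counts in DAOY under FSS and 57 to 68 static. In ONS76 it had 36 to 52 counts under FSS and 21 to 50 static. Whether reads of IFT122 were split with it was not tested.

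Static ONS76 libraries 1 and 2 stood apart from the rest by cardiac myosin transcripts, with 1521 and 500 counts of MYH6 and 942 and 266 counts of MYH7, against at most 17 counts of either in any other library. Results for groups of genes that rest on them are therefore also described without them. Markers of the cerebellar granule lineage and medulloblastoma summed to 25.8 to 28.1 TPM (length-scaled counts as a share of 1e6) under FSS and 22.6 to 24.6 TPM static in ONS76, where ATOH1, NEUROD1, OTX2 and SOX2 were at 0. In DAOY they summed to 82.5 to 86.5 TPM under FSS and 78.5 to 80.9 TPM static, with NEUROD1 and SOX2 at 0. Epithelial markers summed to 579 to 599 TPM under FSS and 558 to 589 TPM static in ONS76. In DAOY their sum was lower under FSS, with 115 to 126 TPM against 164 to 166 TPM static. Of these 5 markers, 2 averaged at least 1 TPM in either DAOY group. The sum of 5 fibroblast markers in DAOY was lower under FSS too, with 1580 to 1760 TPM against 1800 to 2030 TPM static. However, 5 of them averaged at least 1 TPM under FSS and 4 static, so a lower sum does not mean that each marker fell. The part of these markers in the members' responses was not tested. Markers of multiciliated cells were low. Their sums were 2.9 to 3.04 TPM under FSS and 3.88 to 4.45 TPM static in ONS76. The DAOY sums went the other way, with 8.86 to 9.68 TPM under FSS and 6.75 to 8.27 TPM static.

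Promoters are shown first for the members that carry a full X-box, the paired site bound by RFX factors, which are known as activators of ciliary genes. RefSeq (GRCh38.p14) gave a window of 300 bases, from 250 before to 50 after the start, for 52 of the 58 genes. Only 1 start per gene was used, the first listed, so other starts were not searched. The CEP112 window (chr17:65826402-65826701, - strand), for example, lies far inside the gene as annotated in GENCODE 29 (chr17:65635538-66192084). A full X-box was found in 4 of the 52 windows (7.7%), against 1.3% of 27303 promoters. Each line gives 100 bases around it, 5′ to 3′ along the gene, with the X-box in capitals.
IFT57: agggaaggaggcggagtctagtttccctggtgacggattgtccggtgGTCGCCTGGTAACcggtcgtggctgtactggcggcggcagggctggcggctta
IFT122: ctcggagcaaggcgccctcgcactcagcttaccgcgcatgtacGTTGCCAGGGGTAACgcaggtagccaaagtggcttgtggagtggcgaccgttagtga
CEP135: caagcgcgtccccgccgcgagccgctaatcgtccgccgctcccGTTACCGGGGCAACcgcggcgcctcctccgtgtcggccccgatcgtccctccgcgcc
CEP41: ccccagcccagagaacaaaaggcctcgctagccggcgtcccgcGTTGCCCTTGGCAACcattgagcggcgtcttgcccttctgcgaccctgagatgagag
These stretches are chr3:108222375-108222474 (- strand) for IFT57, chr3:129440169-129440268 (+ strand) for IFT122, chr4:55948845-55948944 (+ strand) for CEP135 and chr7:130441120-130441219 (- strand) for CEP41. Under FSS the holders did not move one way: IFT122 and CEP135 fell in both lines, IFT57 fell in ONS76, and CEP41 rose in DAOY.

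The RFX half-site GTTGCC, on either strand, occurred in 19 of the 52 windows (36.5%) and in 12.2% of all promoters. A full X-box can contain the half-site, so these counts overlap. The half-site stood in 5 of the 22 windows of genes that fell in DAOY, 3 of 7 of genes that rose and 9 of 16 of genes with no call. By the ONS76 calls it stood in 7 of 16 windows of genes that fell, 0 of 3 of genes that rose and 10 of 26 of genes with no call, so the order was not the same in both lines. The E2F letters TTCCCGC or TTGGCGC, read by factors that drive genes of DNA replication, occurred in 25.0% of member windows against 9.3% of all promoters. By the DAOY calls they stood in 4 of 22 windows of genes that fell, 2 of 7 of genes that rose and 2 of 16 of genes with no call. By the ONS76 calls these were 2 of 16, 1 of 3 and 5 of 26, so genes that fell did not hold them most often in either line. Members listed at 0, such as CEP19, held the remaining matches. The cell cycle homology letters TTTGAA occurred in 23.1% against 15.4%, and CCAAT in 26 of the 52 windows, against 35.7%. Heat shock letters, GAANNTTC or TTCNNGAA, were as frequent in member windows (13.5%) as in all promoters (13.7%). TTTGAA stood in 9 of the 22 windows of genes that fell in DAOY, in 1 of 7 of genes that rose, and in 0 of 16 of genes with no call. By the ONS76 calls it stood in 6 of 16, 0 of 3 and 4 of 26 windows in the same order of calls. Member windows were also richer in G and C, with a median of 61.8% against 58.3%. Motifs were chosen after results were known, a match is only a match of letters, and these shares were not tested. Whole windows follow for CEP192 and CEP290, which fell in both lines, and for BBS10 and BBS12, which rose in DAOY, with GTTGCC, the E2F letters, TTTGAA and CCAAT (either strand) in capitals.
CEP192: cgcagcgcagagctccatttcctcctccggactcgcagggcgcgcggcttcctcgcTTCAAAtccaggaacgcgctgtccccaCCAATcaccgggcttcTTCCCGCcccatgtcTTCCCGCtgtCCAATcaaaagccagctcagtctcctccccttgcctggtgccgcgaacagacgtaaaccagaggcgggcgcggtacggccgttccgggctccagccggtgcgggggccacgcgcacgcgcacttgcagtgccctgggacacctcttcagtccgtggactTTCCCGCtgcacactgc
CEP290: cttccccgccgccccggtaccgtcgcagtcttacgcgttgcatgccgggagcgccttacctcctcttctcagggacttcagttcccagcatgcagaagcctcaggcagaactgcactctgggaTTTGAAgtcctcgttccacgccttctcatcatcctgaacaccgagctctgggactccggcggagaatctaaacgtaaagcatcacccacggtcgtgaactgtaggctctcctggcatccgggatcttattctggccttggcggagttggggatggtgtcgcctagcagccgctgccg
BBS10: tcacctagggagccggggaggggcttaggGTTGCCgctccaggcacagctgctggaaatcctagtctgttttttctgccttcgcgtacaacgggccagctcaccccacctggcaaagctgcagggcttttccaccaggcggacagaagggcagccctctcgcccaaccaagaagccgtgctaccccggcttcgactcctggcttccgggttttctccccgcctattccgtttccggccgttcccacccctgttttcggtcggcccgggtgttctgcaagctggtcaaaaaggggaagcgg
BBS12: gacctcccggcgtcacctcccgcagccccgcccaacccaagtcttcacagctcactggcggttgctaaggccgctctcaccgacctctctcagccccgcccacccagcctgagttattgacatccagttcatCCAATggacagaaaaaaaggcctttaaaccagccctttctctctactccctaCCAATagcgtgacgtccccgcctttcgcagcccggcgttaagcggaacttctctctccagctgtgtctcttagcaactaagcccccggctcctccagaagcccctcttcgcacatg
They are chr18:12991112-12991411 (+ strand) for CEP192, chr12:88142039-88142338 (- strand) for CEP290, chr12:76348366-76348665 (- strand) for BBS10 and chr4:122732454-122732753 (+ strand) for BBS12. CEP192 holds 3 E2F matches, 2 CCAAT boxes and 1 TTTGAA on the opposite strand. CEP290 holds 1 TTTGAA, BBS10 holds 1 GTTGCC, and BBS12 holds 2 CCAAT boxes and none of the other letters.

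Under FSS, transcripts of the cilium and centrosome genes fell more often than they rose, by small amounts, in DAOY and in ONS76 with all of its libraries kept. In DAOY, 25 of the 50 tested genes fell and 8 rose (edgeR quasi-likelihood test, Benjamini-Hochberg adjusted p under 0.05 over all 19631 genes). Of all tested genes, 39.7% were called in DAOY, 20.1% lower and 19.5% higher, so the share that fell among the members (50%) stood above the background and the share that rose (16%) near it. The members' median level was above that of all tested genes (25.4 against 7.72 CPM). Shares among genes of like level were not compared. In ONS76, 16 of the 50 fell and 5 rose, beside 13.9% and 14.1% of all genes (28.0% in either direction). The median log2 fold change of the 50 was -0.19 in DAOY and -0.07 in ONS76, against 0.00 for all genes in both. FSS and static libraries did not overlap for 37 of the 50 in DAOY, against 49.9% of all genes, and for 28 of the 50 in ONS76, against 38.7% of all genes. In DAOY 40 of the 50 had a negative fold change, and in ONS76 32. The called changes lay between -0.87 and 0.98 on the log2 scale.

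The lines shared 16 calls, all in the same direction. Of the members, 26% fell in both and 6% rose in both, beside 7.96% and 6.93% of all tested genes, so the shared rises were near the background. BBS4, CEP131, CEP135, CEP164, CEP192, CEP20, CEP290, CEP72, CEP89, IFT122, IFT52, IFT56 and IFT74 fell in both, and CEP170 and IFT20 were among those that rose in both. No member was called in opposite directions, which was rare among all genes too (0.953% rose in DAOY and fell in ONS76, and 1.5% the reverse). When static ONS76 libraries 1 and 2 were left out, 7 members were called lower in ONS76 and 5 higher, against 16 and 5 with them. In that setting 8.56% of 21248 tested genes were called lower and 7.33% higher, so the excess of lower calls among the members (14%) was smaller. BBS4, CEP20, CEP135, CEP72, CEP89, IFT56, IFT57, IFT74 and IFT88 were then no longer called lower in ONS76, and CEP350 no longer higher. Their log2 fold changes kept their sign and were 65.6 to 118.7% of those with all libraries, with 1 static library left in that line. IFT27 was called higher in that setting alone, with a log2 fold change of 0.53 (edgeR adjusted p = 0.00592). Among 19 alternatives with both libraries or 1 of them kept, CEP135, CEP164, CEP350, CEP72, CEP89, IFT56 and IFT88 lost their ONS76 call in at least 1, where their log2 fold changes were 57.5 to 105.3% of the reported ones. In DAOY, BBS2, CEP135, CEP44, CEP57, CEP83 and CEP89 lost their call in at least 1 of the 19, with log2 fold changes of 57.7 to 115.7% of the reported ones.

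**Figure D1:**
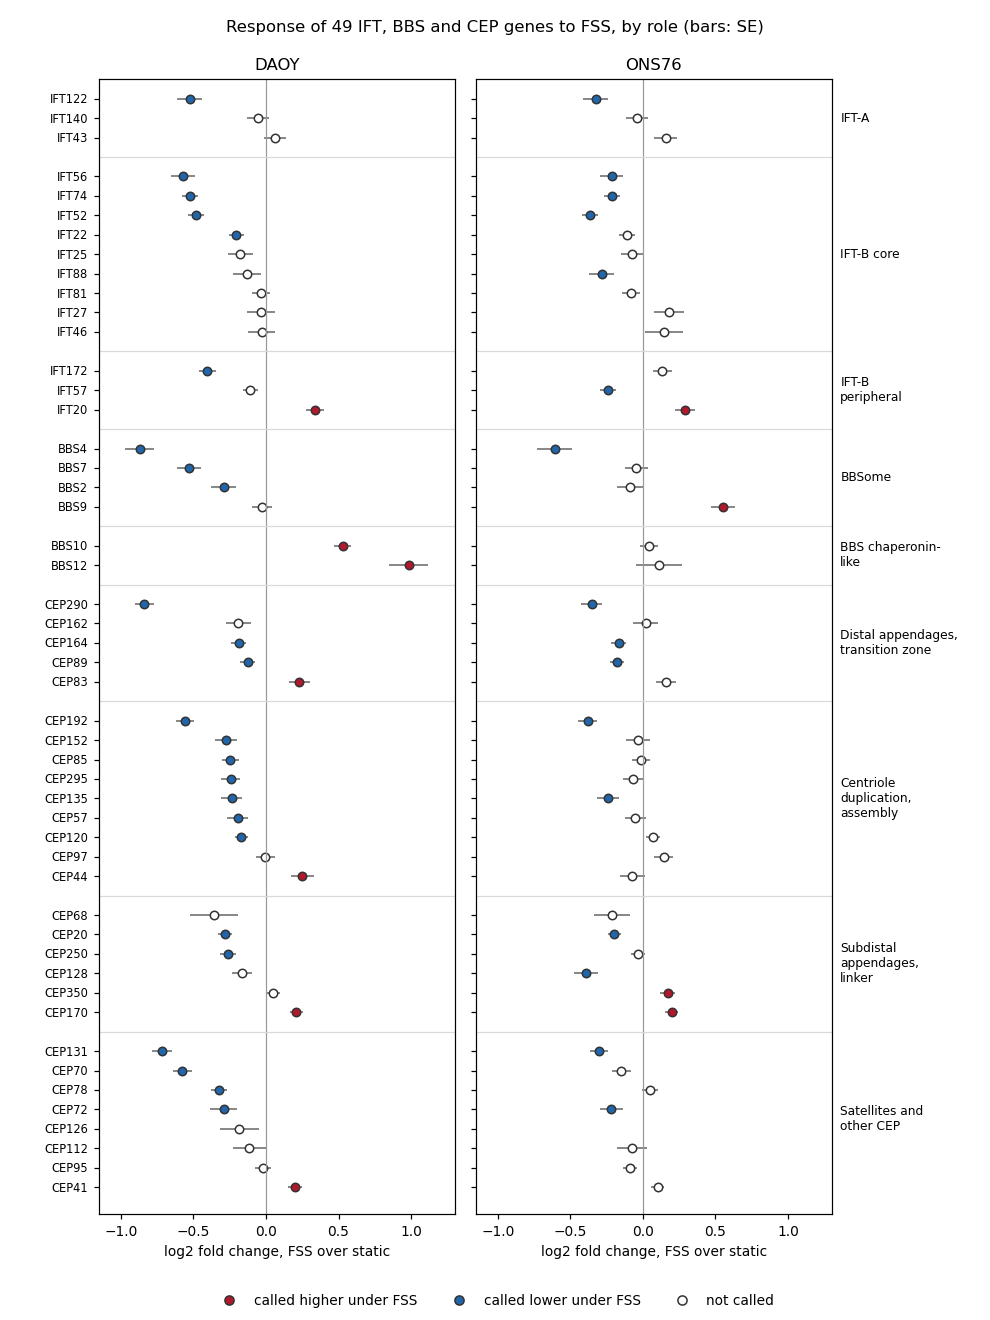
Log2 fold change of FSS over static libraries (x axis) for 49 of the 50 tested IFT, BBS and CEP genes (rows, grouped by role), in DAOY (left) and ONS76 (right), with bars of 1 SE. Filled points passed the edgeR test; in DAOY 25 lie left of 0 and 7 right of it, and in ONS76 16 and 4. CEP126, at 0 in ONS76, has no point there.

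The IFT-A complex had 1 called gene of 3, the same in both lines, beside 39.7% of all genes called in DAOY and 28.0% in ONS76. IFT122, a core subunit of IFT-A, had 10.9, 9.64 and 10.1 CPM in DAOY under FSS, against 14.9, 14.0 and 15.2 CPM static (log2 fold change -0.52, SE 0.087, edgeR adjusted p = 1.05e-05). In ONS76 it had 11.8, 11.4 and 13.3 CPM under FSS, against 15.1, 14.1 and 16.6 CPM static (log2 fold change -0.33, SE 0.088, edgeR adjusted p = 0.00486). All FSS libraries lay below all static libraries in each line. Reads assigned to IFT122P3, which was higher under FSS in DAOY, may affect the IFT122 values there, which was not tested. IFT140, another core subunit, and IFT43 gave overlapping libraries in both lines, with log2 fold changes of -0.06 and 0.06 in DAOY and -0.04 and 0.16 in ONS76.

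Of the 9 core IFT-B genes, 4 fell in each line and none rose, while 20.1% of all genes fell in DAOY and 13.9% in ONS76. IFT52, a hub of the core, had 33.0, 33.8 and 30.2 CPM in DAOY under FSS, against 41.7, 48.7 and 45.1 CPM static (log2 fold change -0.48, SE 0.058, edgeR adjusted p = 3.71e-08). ONS76 libraries had 44.0, 43.0 and 47.2 CPM under FSS, against 60.0, 56.4 and 56.2 CPM static (log2 fold change -0.36, SE 0.057, edgeR adjusted p = 6.85e-06). Neither line's FSS libraries overlapped with its static ones. IFT74, which binds tubulin together with IFT81, had 23.5, 23.3 and 22.3 CPM in DAOY under FSS, against 32.8, 31.8 and 34.7 CPM static (log2 fold change -0.52, SE 0.057, edgeR adjusted p = 4.52e-09). Its values in ONS76 were 34.0, 32.9 and 33.5 CPM under FSS, against 40.7, 38.3 and 37.4 CPM static (log2 fold change -0.21, SE 0.056, edgeR adjusted p = 0.00362), a fall smaller than that in DAOY (difference -0.31, SE 0.079, edgeR adjusted p = 0.00444). Its partner IFT81 was not called in either line (-0.03 in DAOY and -0.08 in ONS76). IFT56, also known as TTC26, had log2 fold changes of -0.57 in DAOY (edgeR adjusted p = 1.11e-06) and -0.22 in ONS76 (edgeR adjusted p = 0.0372). The ONS76 call was lost without FSS library 1 or 2 or any 1 static library of that line (adjusted p 0.0632 to 0.2). IFT22, a small GTPase-like subunit, fell in DAOY (-0.20).

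IFT88, the core subunit whose loss stops cilium formation in mice, had 9.02, 9.74 and 8.57 CPM in DAOY under FSS, against 9.37, 9.46 and 11.1 CPM static, with overlapping libraries and no call (log2 fold change -0.13, SE 0.097, edgeR adjusted p = 0.304). The ONS76 libraries gave 16.4, 17.8 and 21.0 CPM under FSS, against 22.5, 23.5 and 21.2 CPM static (log2 fold change -0.29, SE 0.088, edgeR adjusted p = 0.0135), the groups only just apart. Leaving out FSS library 1, FSS library 2 or static library 2 ended that call (adjusted p 0.0634 to 0.114). IFT25 and IFT27, the pair that links IFT-B to the BBSome, and IFT46 were not called in either line.

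The peripheral IFT-B genes went different ways. IFT20, which also works at the Golgi in sorting proteins bound for the cilium, had 41.4, 42.3 and 42.4 CPM in DAOY under FSS, against 32.7, 33.0 and 34.0 CPM static (log2 fold change 0.34, SE 0.061, edgeR adjusted p = 3.08e-05). In ONS76 it had 21.9, 21.8 and 24.5 CPM under FSS, against 20.3, 16.8 and 18.5 CPM static (log2 fold change 0.29, SE 0.067, edgeR adjusted p = 0.00128). It was the only IFT gene that rose, and its rise did not differ between the lines by the test (difference 0.05, SE 0.091, edgeR adjusted p = 0.783). IFT172, the largest IFT-B subunit, had 34.6, 35.0 and 31.5 CPM in DAOY under FSS, against 45.1, 42.5 and 46.2 CPM static (log2 fold change -0.40, SE 0.057, edgeR adjusted p = 7.50e-07). ONS76 libraries had 19.3, 18.0 and 18.1 CPM under FSS, against 16.8, 16.7 and 17.0 CPM static, apart but not called (log2 fold change 0.13, SE 0.065, edgeR adjusted p = 0.137). IFT172 thus lay lower under FSS in all DAOY libraries and higher in all ONS76 libraries, and the responses differed (-0.54, SE 0.087, edgeR adjusted p = 2.46e-05). IFT57 fell in ONS76 (-0.24) and had -0.11 in DAOY, with no call.

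Of the BBSome subunits, BBS2, BBS4 and BBS7 fell in DAOY, where the chaperonin-like genes BBS10 and BBS12 rose. BBS4, the subunit that meets the satellite protein PCM1, had 10.9, 10.2 and 8.18 CPM in DAOY under FSS, against 17.2, 17.4 and 19.2 CPM static (log2 fold change -0.87, SE 0.10, edgeR adjusted p = 2.53e-08). Its values in ONS76 were 5.44, 4.39 and 5.06 CPM under FSS, against 8.33, 7.61 and 6.61 CPM static (log2 fold change -0.61, SE 0.12, edgeR adjusted p = 2.11e-04). These were the largest called falls of the 50 genes in each line. Without static ONS76 libraries 1 and 2 its log2 fold change in that line was -0.41. The 1 static library then left, at 6.61 CPM, lay above every FSS library.

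BBS7 had 11.7, 15.4 and 13.8 CPM in DAOY under FSS, against 20.6, 18.3 and 20.1 CPM static (log2 fold change -0.53, SE 0.081, edgeR adjusted p = 2.97e-06). The ONS76 libraries gave 22.4, 23.5 and 23.9 CPM under FSS, against 23.0, 24.0 and 25.2 CPM static, which overlap (log2 fold change -0.05, SE 0.078, edgeR adjusted p = 0.728). The responses differed (-0.48, SE 0.11, edgeR adjusted p = 0.00199). BBS2 fell in DAOY by less (-0.29), with overlapping libraries, and lost the call without FSS library 1 (adjusted p = 0.061). BBS9 went another way: it had 12.9, 12.4 and 12.7 CPM in ONS76 under FSS, against 8.11, 8.83 and 9.09 CPM static (log2 fold change 0.55, SE 0.083, edgeR adjusted p = 4.00e-06). In DAOY it had 25.7, 24.6 and 22.4 CPM under FSS, against 24.5, 23.8 and 25.7 CPM static, which overlap (log2 fold change -0.03, SE 0.071, edgeR adjusted p = 0.81). The difference between the responses was -0.58 (SE 0.11, edgeR adjusted p = 1.93e-04), DAOY minus ONS76.

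BBS12 and BBS10 belong with MKKS to the chaperonin-like proteins that assemble the BBSome core. BBS12 had 11.4, 9.90 and 12.0 CPM in DAOY under FSS, against 5.31, 5.85 and 5.66 CPM static (log2 fold change 0.98, SE 0.13, edgeR adjusted p = 3.46e-07), the largest rise of the 50 genes. In ONS76 it had 3.40, 3.19 and 4.98 CPM under FSS, against 3.39, 2.96 and 4.35 CPM static, and the groups overlap. BBS10 had 40.6, 44.9 and 39.8 CPM in DAOY under FSS, against 29.4, 28.7 and 28.8 CPM static (log2 fold change 0.53, SE 0.060, edgeR adjusted p = 1.41e-08). ONS76 libraries had 30.7, 32.9 and 35.5 CPM under FSS, against 34.0, 31.8 and 30.3 CPM static, which again overlap. Both responses differed between the lines: by 0.87 for BBS12 (SE 0.21, edgeR adjusted p = 0.00235) and 0.49 for BBS10 (SE 0.086, edgeR adjusted p = 8.47e-05). MKKS, which has no number in its symbol, rose in DAOY as well (log2 fold change 0.22, SE 0.060, edgeR adjusted p = 0.00291) and was not called in ONS76 (0.09).

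**Figure D2:**
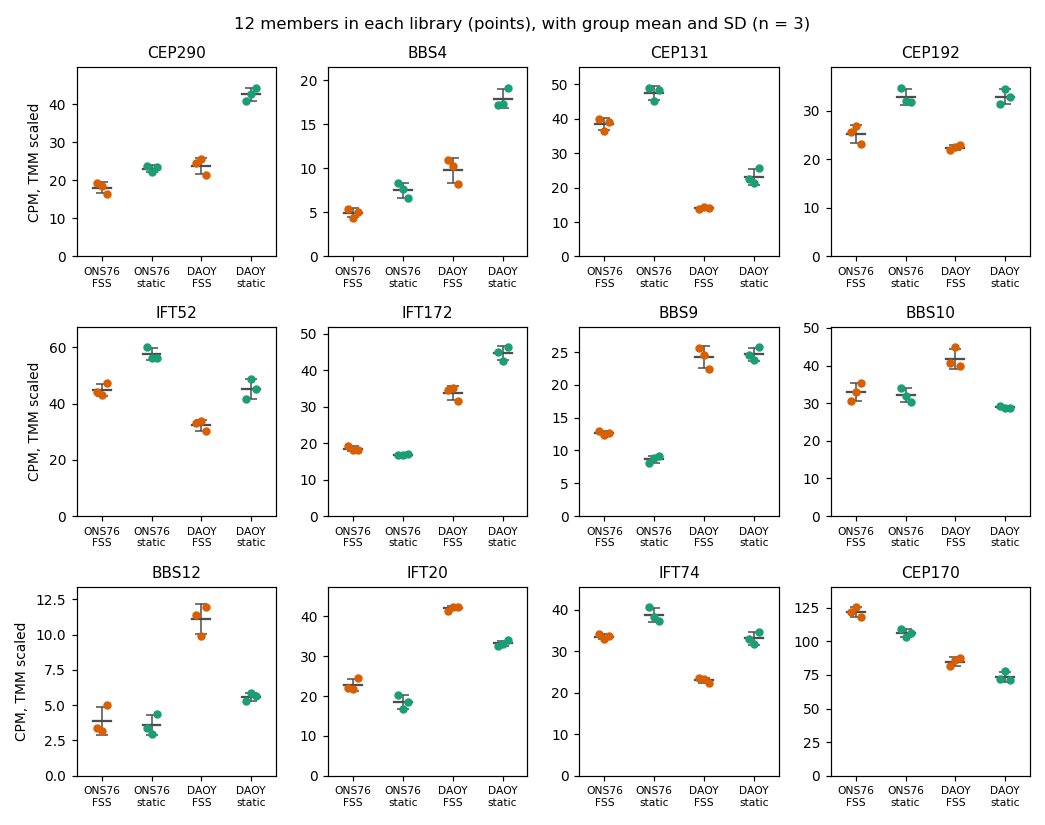
TMM-scaled CPM (y axis, from 0) of 12 members, chosen after results were seen, in each library (points: orange for FSS, green for static), with the group mean and SD (n = 3). CEP290 and BBS4 lie lower under FSS in both lines, BBS10 and BBS12 lie higher under FSS in DAOY, and BBS9 lies higher under FSS in ONS76.

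Among the 5 tested genes of the distal appendages and transition zone, CEP290 moved most in each line. CEP290, a long tether of the transition zone and a frequent cause of Joubert syndrome and retinal disease when mutated, had 24.5, 25.6 and 21.5 CPM in DAOY under FSS, against 41.0, 42.8 and 44.4 CPM static (log2 fold change -0.84, SE 0.066, edgeR adjusted p = 5.73e-12). Its values in ONS76 were 19.3, 18.5 and 16.5 CPM under FSS, against 23.8, 22.1 and 23.5 CPM static (log2 fold change -0.35, SE 0.072, edgeR adjusted p = 2.70e-04). Every FSS library lay below every static one in each line, and the DAOY fall was the larger (difference -0.48, SE 0.097, edgeR adjusted p = 4.06e-04).

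The distal appendages dock the mother centriole to the membrane. CEP164, their outer protein that recruits the kinase TTBK2, fell to 46.1, 45.4 and 43.7 CPM in DAOY under FSS, against 50.7, 52.2 and 51.1 CPM static (log2 fold change -0.19, SE 0.052, edgeR adjusted p = 0.00428). The ONS76 libraries gave 44.8, 42.1 and 42.4 CPM under FSS, against 46.2, 46.0 and 53.1 CPM static (log2 fold change -0.17, SE 0.054, edgeR adjusted p = 0.0177). The static ONS76 library 3 is the highest, and without it that call was lost (adjusted p = 0.223), as it was without FSS library 2 or 3. CEP83, the innermost appendage protein on which the others depend, rose in DAOY, with 17.6, 20.3 and 17.8 CPM under FSS against 16.4, 15.7 and 15.4 CPM static (log2 fold change 0.23, SE 0.072, edgeR adjusted p = 0.0112). Without FSS library 2 its adjusted p was 0.141. CEP89 fell in both lines by under 0.20 (-0.13 in DAOY and -0.18 in ONS76), and its DAOY call, at an adjusted p of 0.0479, was lost in 16 of 20 alternatives (adjusted p 0.0502 to 0.154). Its ONS76 call was lost without static library 1 (adjusted p = 0.0637). CEP162 was not called in either line.

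Of the 9 tested genes of centriole duplication, assembly and elongation, 7 fell and 1 rose in DAOY, and 2 fell in ONS76. The shares of all genes were 20.1% and 19.5% in DAOY, and 13.9% fell in ONS76. CEP192, which gathers pericentriolar material and recruits the duplication kinase PLK4, had 21.8, 22.5 and 22.9 CPM in DAOY under FSS, against 31.4, 34.5 and 32.8 CPM static (log2 fold change -0.56, SE 0.063, edgeR adjusted p = 1.06e-08). In ONS76 it had 25.7, 26.9 and 23.2 CPM under FSS, against 34.7, 32.0 and 31.9 CPM static (log2 fold change -0.38, SE 0.063, edgeR adjusted p = 1.75e-05). The groups were apart in both lines, and the responses were not called different (difference -0.17, SE 0.089, edgeR adjusted p = 0.185). CEP152, the other PLK4 scaffold, fell in DAOY (log2 fold change -0.28, SE 0.074, edgeR adjusted p = 0.00322) and had -0.04 in ONS76. CEP135, a cartwheel protein, had -0.24 in DAOY and -0.24 in ONS76, called in both. Its ONS76 call was lost without FSS library 1 or 2 or static library 1 or 3 (adjusted p 0.0538 to 0.101), and its DAOY call without static library 2 (adjusted p = 0.0555).

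CEP85, CEP295, CEP57 and CEP120 fell in DAOY by 0.24, 0.24, 0.20 and 0.17 on the log2 scale and were not called in ONS76. The CEP57 call was lost without FSS library 1 or 3 or any 1 static library of DAOY (adjusted p 0.0555 to 0.250). CEP120, which elongates centrioles, had 49.7, 50.2 and 52.4 CPM in DAOY under FSS, against 58.3, 58.2 and 54.5 CPM static. Its response differed between the lines (difference -0.24, SE 0.066, edgeR adjusted p = 0.00874). CEP44, needed to turn new centrioles into centrosomes, rose in DAOY with 23.2, 22.4 and 21.6 CPM under FSS against 19.2, 18.3 and 19.0 CPM static (log2 fold change 0.25, SE 0.078, edgeR adjusted p = 0.0104). Its adjusted p was 0.0573 without FSS library 1. CEP97, which caps centrioles and holds back cilium growth, overlapped between FSS and static libraries and was not called in either line.

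The genes of subdistal appendages, of the linker between centrioles and of centriole anchoring split in direction. CEP170, a subdistal appendage protein that binds microtubules, had 81.4, 86.0 and 87.6 CPM in DAOY under FSS, against 71.6, 77.9 and 71.0 CPM static (log2 fold change 0.21, SE 0.044, edgeR adjusted p = 2.55e-04). ONS76 libraries had 122, 126 and 118 CPM under FSS, against 109, 103 and 106 CPM static (log2 fold change 0.20, SE 0.044, edgeR adjusted p = 6.61e-04). Reads shared with CEP170P1 leave its level uncertain. CEP128, which recruits subdistal appendages, fell in ONS76, with 9.63, 11.1 and 10.3 CPM under FSS against 11.6, 14.0 and 15.2 CPM static (log2 fold change -0.39, SE 0.084, edgeR adjusted p = 5.16e-04). In DAOY its libraries were apart too, but its adjusted p was 0.0505 by edgeR (log2 fold change -0.17). CEP20 fell in both lines (-0.28 in DAOY and -0.20 in ONS76). CEP250, the anchor of the linker, fell in DAOY (log2 fold change -0.26, SE 0.054, edgeR adjusted p = 1.88e-04) and had -0.04 in ONS76. CEP350 rose in ONS76 (log2 fold change 0.17, SE 0.049, edgeR adjusted p = 0.00846), a call lost without FSS library 2 (adjusted p = 0.12).

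Among the satellite and remaining CEP genes, 4 of 9 fell and 2 rose in DAOY, beside 20.1% and 19.5% of all genes, so the rises were near the background. CEP131, a satellite protein also called AZI1, had 13.7, 14.5 and 14.0 CPM in DAOY under FSS, against 22.4, 21.3 and 25.9 CPM static (log2 fold change -0.72, SE 0.069, edgeR adjusted p = 4.17e-10). Its values in ONS76 were 40.1, 36.6 and 39.0 CPM under FSS, against 49.0, 45.3 and 48.4 CPM static (log2 fold change -0.30, SE 0.062, edgeR adjusted p = 2.72e-04). The fall was the larger in DAOY (difference -0.41, SE 0.092, edgeR adjusted p = 0.00137). CEP70 had 19.2, 18.8 and 17.3 CPM in DAOY under FSS, against 27.5, 28.0 and 27.0 CPM static (log2 fold change -0.57, SE 0.066, edgeR adjusted p = 1.41e-08). In ONS76 it was apart by a small margin and not called (-0.15). CEP72, which works with satellites, fell in both lines (-0.29 in DAOY and -0.22 in ONS76). Its ONS76 call was lost without FSS library 2 or 3 or any 1 static library of that line (adjusted p 0.0728 to 0.154). CEP78, a basal body protein, fell in DAOY (-0.33) and was not called in ONS76 (0.05).

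CEP41, which helps to bring a tubulin-modifying enzyme into the cilium, rose in DAOY (log2 fold change 0.20, SE 0.047, edgeR adjusted p = 9.04e-04). CEP95, CEP112 and CEP126 were not called in either line.

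The size of the FSS response differed between the lines for 15 of the 50 genes, beside 19.1% of all genes. In 12 of them the DAOY response was the more negative (background 10.7%), and in 3 the more positive (background 8.34%). The 12 were BBS7, BBS9, CEP120, CEP131, CEP250, CEP290, CEP70, CEP78, CEP85, IFT172, IFT56 and IFT74, and the 3 were BBS10, BBS12 and CEP44. For CEP131, CEP290, IFT56 and IFT74 both lines fell and DAOY fell further. For CEP250, CEP70, CEP78, CEP85, CEP120, BBS7 and IFT172 and for the 3 the DAOY change was called and the ONS76 change was not, and for BBS9 the reverse held. The median difference over the 50 was -0.13 against 0.00 for all genes. Leaving out 1 library ended the call of CEP44 for 10 of the 12 libraries (adjusted p 0.0525 to 0.232) and that of CEP85 for 8 (0.0669 to 0.132). It ended that of CEP250 for ONS76 FSS library 1, ONS76 static library 1, DAOY FSS library 1 and DAOY static libraries 1 and 3 (0.0555 to 0.0674). It ended that of IFT56 for ONS76 FSS library 3, ONS76 static library 1, DAOY FSS library 3 and DAOY static library 3 (0.051 to 0.088). Without static ONS76 libraries 1 and 2, 1 static library is left in that line, so calls are not counted here. The differences of CEP250, CEP85 and IFT56, which lost their call, were then 84.2 to 106.0% of those with all libraries. Those of IFT27 and CEP128, not called with all libraries, grew from -0.21 to -0.56 and from 0.22 to 0.38.

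**Figure D3:**
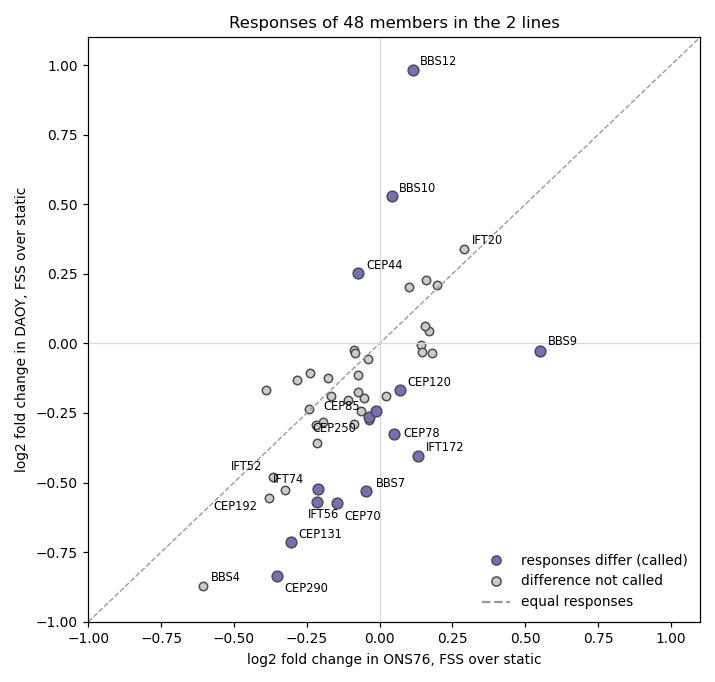
Log2 fold change under FSS in ONS76 (x axis) and DAOY (y axis) for 48 members, with the line of equal responses dashed and CEP126, at 0 in ONS76, left out. Large violet points mark the 15 genes whose responses differed by the edgeR test, 12 below the line and 3 above it.

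Between the static lines, 24 of the 50 genes were higher in ONS76 and 17 lower, beside 37.9% and 43.2% of all genes, and 81.0% of all genes were called in either direction. The libraries of the 2 static groups did not overlap for 41 of the 50, against 81.8% of all genes. CEP68, a linker protein, had 10.2, 10.6 and 7.95 CPM in static ONS76, against 2.19, 2.70 and 2.73 CPM in static DAOY (log2 fold change 1.92, SE 0.14, edgeR adjusted p = 4.26e-14). CEP250, its partner in the linker, had 67.0, 71.1 and 71.2 CPM in static ONS76, against 26.9, 25.1 and 26.4 CPM in static DAOY (log2 fold change 1.41, SE 0.051, edgeR adjusted p = 1.50e-22). CEP72 (log2 fold change 1.33), IFT88 (1.17), IFT25 (1.06), CEP95 (1.05) and CEP131 (1.04) were also at least 1 log2 unit higher in static ONS76.

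At the other end, IFT46 had 2.75, 2.68 and 3.10 CPM in static ONS76, against 11.9, 13.6 and 12.3 CPM in static DAOY (log2 fold change -2.15, SE 0.11, edgeR adjusted p = 3.73e-18). BBS9 (-1.51), CEP128 (-1.48), IFT172 (-1.40) and BBS4 (-1.25) were lower in static ONS76 too. CEP126, known from human cells as a centrosomal protein needed for cilium formation, was at 0 in all 6 ONS76 libraries. In DAOY it had 6.88, 7.16 and 6.52 CPM under FSS and 7.56, 6.96 and 8.84 CPM static. Against a floor of 3 counts over the static ONS76 group (0.0259 CPM with the same scaling), it was at least 300-fold lower in static ONS76 than in static DAOY, which had 1021 counts. Within IFT-B, then, IFT88 and IFT25 were higher in static ONS76 while IFT46 and IFT172 were lower.

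The line comparison depends on scaling. TMM factors put the median of all genes at -0.10, and upper-quartile factors moved it by a further -0.22. Members called higher and lower in static ONS76 were 24 and 17 with TMM, 22 and 19 with RLE factors and 16 and 23 with upper-quartile factors. In the same order, 58.5%, 53.7% and 41% of the members' calls were higher, beside 46.7%, 44.4% and 38.3% of the calls among all genes. That common shift turned the sign of 9 members with small differences (BBS10, BBS2, CEP162, CEP192, CEP97, IFT122, IFT140, IFT43 and IFT57), so no direction is given for them. The genes named above at a log2 difference of 1 or more kept their direction and call in all 20 alternatives. Without static ONS76 libraries 1 and 2, the log2 differences of members that lost their call were 30.1 to 80.8% of those with all libraries.

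**Figure D4:**
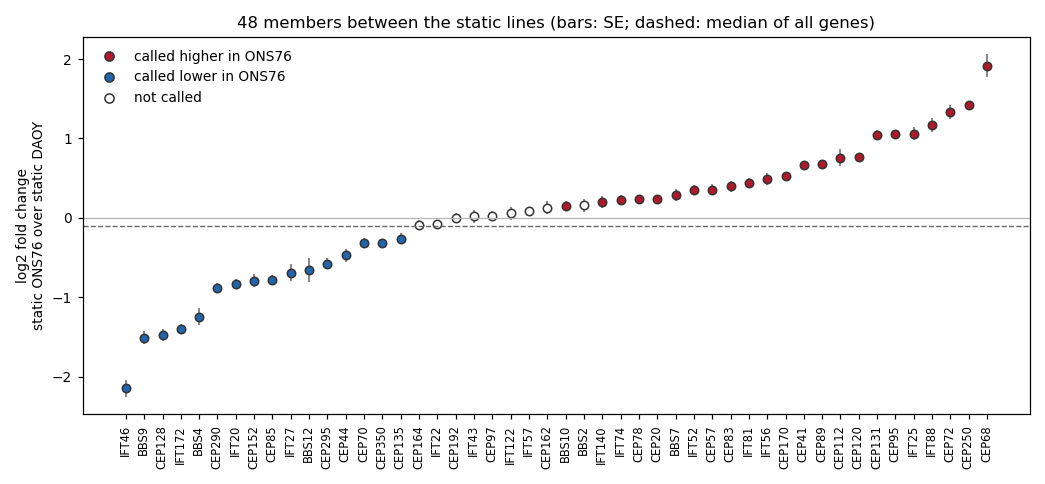
Log2 fold change of static ONS76 over static DAOY (y axis) for 48 members in order of size (x axis), with bars of 1 SE and the median of all genes dashed at -0.10. CEP68 stands highest at 1.92 and IFT46 lowest at -2.15, and CEP126, at 0 in ONS76, is left out.

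Levels between genes can be compared only in TPM, which accounts for gene length. In static DAOY the highest members were IFT52 with 81.9, 97.6 and 90.3 TPM, CEP20 with 80.5, 83.3 and 82.0 TPM and IFT20 with 75.8, 78.2 and 80.4 TPM. In DAOY under FSS the order changed, with IFT20 at 96.1, 101 and 99.2 TPM above CEP20 at 61.9, 69.1 and 71.0 TPM and IFT52 at 64.8, 68.1 and 59.8 TPM. The IFT20 libraries do not overlap with the others there, while those of CEP20 and IFT52 do. In ONS76 the leading members were IFT25, IFT52 and CEP20 in both conditions. IFT25 had 76.3, 63.9 and 73.0 TPM under FSS and 75.7, 65.6 and 78.5 TPM static, and IFT52 had 68.6, 65.1 and 70.1 TPM under FSS and 88.1, 85.7 and 83.7 TPM static. At the low end, BBS12 had 2.71, 2.47 and 3.78 TPM in ONS76 under FSS and 2.55, 2.30 and 3.31 TPM static, and CEP68 had 1.28, 1.06 and 1.20 TPM in DAOY under FSS and 1.28, 1.61 and 1.63 TPM static. The TPM of all members summed to 1081 to 1148 in DAOY under FSS and 1176 to 1223 in static DAOY, and to 954 to 996 in ONS76 under FSS and 1003 in each static ONS76 library.

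Other genes linked to the cilium and centrosome fell in DAOY in greater number than they rose. Their lists do not use the IFT, BBS or CEP symbols. They take in ciliary transcription factors, motile axoneme genes and genes of cilium disassembly, the last with mitotic kinases. Over 9 such lists, 53 of 120 tested genes fell (44.2%) and 16 rose (13.3%) in DAOY, beside 20.1% and 19.5% of all genes. In ONS76 28 fell (23.3%) and 16 rose (13.3%), beside 13.9% and 14.1%, or 19 and 10 genes without static ONS76 libraries 1 and 2. Of 18 tested genes of the pericentriolar material and satellites, 13 fell and 1 rose in DAOY. CDK5RAP2, which tethers gamma-tubulin rings, averaged 79.0 CPM in DAOY under FSS and 129 CPM static (log2 fold change -0.71, SE 0.042, edgeR adjusted p = 7.47e-15). In ONS76 6 genes of that list fell and 5 rose. AKAP9, a scaffold of the same material, rose in ONS76 (log2 fold change 0.30, SE 0.056, edgeR adjusted p = 9.24e-05) and fell in DAOY (-0.18).

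Of 18 tested transition zone and inversin genes, 11 fell and 3 rose in DAOY, and 4 fell and 3 rose in ONS76. TMEM237, a Joubert syndrome gene, fell in both (-0.60 in DAOY and -0.43 in ONS76), and AHI1, another, rose in both (0.67 in DAOY and 0.28 in ONS76). Of 9 tested genes of cilium disassembly, 7 fell in DAOY and 5 in ONS76, and none rose. They include the mitotic kinases PLK1 (-0.29 in DAOY and -0.56 in ONS76) and NEK2 (-0.45 in DAOY and -0.30 in ONS76). Of 8 tested motor genes, 4 fell and 1 rose in DAOY and 3 fell in ONS76. DYNC2I2, an intermediate chain of the dynein-2 motor, fell in both (-0.54 in DAOY and -0.31 in ONS76), and KIFAP3, a kinesin-2 subunit, rose in DAOY (0.48). Of 21 centriole genes under other symbols, 10 fell and 2 rose in DAOY and 6 fell and 2 rose in ONS76. OFD1, a distal centriole protein, fell in both (-0.39 in DAOY and -0.77 in ONS76). Of 11 IFT and BBSome genes under other symbols, 3 fell and 3 rose in DAOY and 1 fell and 2 rose in ONS76. Of 15 ciliary membrane and trafficking genes, 1 fell and 3 rose in DAOY and 2 rose in ONS76. Of all tested genes, 20.1% fell and 19.5% rose in DAOY, and 13.9% fell and 14.1% rose in ONS76. The counts of this last list lie near or under those shares. Among IFT and BBSome genes under other symbols, falls did not outnumber rises in either line. Their median log2 fold change was -0.06 in DAOY and 0.09 in ONS76.

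Genes of the cell cycle fell alongside. Of 15 G1/S genes, 14 fell in DAOY and 13 in ONS76, with median log2 fold changes of -0.56 and -0.43. Of 16 G2/M genes, 12 fell in DAOY and 16 in ONS76, with medians of -0.43 and -0.50. Without static ONS76 libraries 1 and 2, 28 of these genes fell in ONS76, against 29 with them. MKI67, a marker of cycling cells, averaged 292 CPM in DAOY under FSS and 475 CPM static (log2 fold change -0.70, SE 0.042, edgeR adjusted p = 7.00e-15). Centrosome genes are in part cell-cycle genes, and the part of the cell cycle in the members' responses was not tested.

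**Figure D5:**
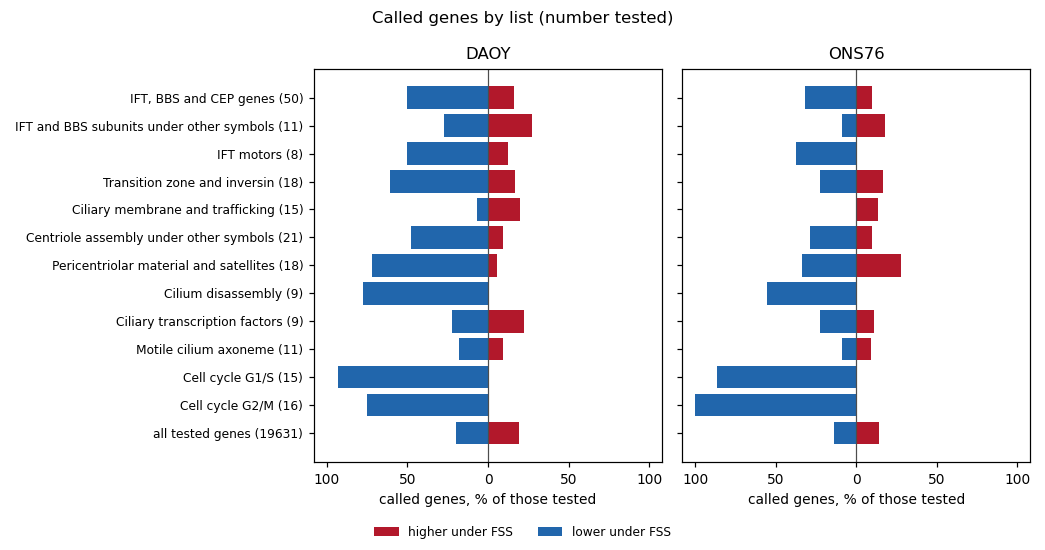
Called genes as a percentage of those tested in each list (number tested in brackets), with genes higher under FSS to the right in red and lower to the left in blue, in DAOY (left) and ONS76 (right). The member genes are the top row and all tested genes the bottom row; 14 of 15 G1/S genes lie lower in DAOY and 16 of 16 G2/M genes in ONS76.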

How the data were processed

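The deposited files were raw counts per gene, whole numbers made by the authors with no normalization, and TPM values computed by the authors from them. The submitters' processing notes name HISAT2 2.2.1, the GRCh38 build and featureCounts, without its version, its annotation or how it treated strand and overlaps. Libraries were directional and polyA-selected, per the labels' protocols.

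A quasi-likelihood model in edgeR 4.0.16 (R 4.3.3) was fitted to all 12 libraries with 1 mean per group, after filterByExpr and TMM scaling. FSS was set against static libraries in each line, the ONS76 response was subtracted from that of DAOY, and static ONS76 was set against static DAOY. Tests were two-sided. A gene was called at a false discovery rate (Benjamini-Hochberg, all 19631 tested genes) under 0.05. Each SE is the size of the log2 fold change over the root of its F statistic. The common coefficient of biological variation was 4.87%. Deposited TPM values were used as given, to compare levels between genes. The test was tried on simulated data.

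The member genes, role lists and companion lists were chosen with earlier results of these data known. Members named first were up to 10 per direction and line by size among called genes, up to 5 per direction for the difference and 8 between static lines, the smallest p per role, a short fixed set and every untested member. Others were named for completeness. For 1 tested member, included in the counts, individual results are not reported here. Promoter motifs, printed promoters, the genes of the plot by library and the setting without static ONS76 libraries 1 and 2 were chosen after seeing the data. Alternatives were a replicate block, RLE and upper-quartile factors, DESeq2 1.42.0, no filter, a stricter filter, fits of the compared groups alone and each library left out in turn. Positions are from GENCODE 29 and promoters from RefSeq GRCh38.p14; whether the counts used either is not known. Reads of overlapping, antisense or near-identical genes may be assigned elsewhere.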

Additional observations from a re-analysis of the deposited data

Results flagged for a closer look

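The FSS responses of 15 members differed between the lines by the edgeR test of the difference itself (DAOY minus ONS76, on the log2 scale, adjusted over all 19631 tested genes). Among BBSome genes the difference was -0.58 for BBS9 (adjusted p = 1.93e-04), which rose in ONS76 and was not called in DAOY, and -0.48 for BBS7 (adjusted p = 0.00199), which fell in DAOY and was not called in ONS76. Among IFT-B genes it was -0.54 for IFT172 (adjusted p = 2.46e-05), -0.35 for IFT56 (adjusted p = 0.026) and -0.31 for IFT74 (adjusted p = 0.00444). For IFT172, every FSS library lay below every static library in DAOY and above every static library in ONS76.

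At the centrosome and cilium base the difference was -0.48 for CEP290, -0.43 for CEP70, -0.41 for CEP131, -0.37 for CEP78, -0.24 for CEP120, -0.23 for CEP85 and -0.23 for CEP250. Of these, CEP85 had an adjusted p of 0.0496 and CEP250 of 0.0236, and both lost the call in several alternatives. The difference was positive for BBS12 (0.87, adjusted p = 0.00235), BBS10 (0.49, adjusted p = 8.47e-05) and CEP44 (0.32, adjusted p = 0.0466). What sets these differences between the lines was not tested.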

How the results depend on the processing

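Of 32 counts of called genes (members, companion genes, cell cycle genes and all genes, by contrast and direction), 31 stayed within 1.5 times under all 19 alternatives named in the methods. The exception was cell cycle genes higher in static ONS76, 5 with upper-quartile factors against 13. Leaving out static ONS76 libraries 1 and 2 together, a setting added after seeing the data that leaves 1 static ONS76 library assumed to vary like the rest, moved 6 counts. In ONS76 the members that fell numbered 7 against 16, all genes that rose 1558 against 2770 and fell 1818 against 2735, and companion genes that rose 10 against 16. For the difference of responses, companion genes numbered 7 against 12 on the positive side and 18 against 31 on the negative side. The cause was not tested, although fewer samples entered that fit. With 1 library left out in turn, members that fell numbered 22 to 25 in DAOY and 11 to 16 in ONS76.

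Upper-quartile factors shifted all genes alike by -0.22 between the static lines and turned the sign of 9 members, of which 6 had a call under 1 of the scalings: BBS10 (-0.073), CEP192 (-0.22), CEP97 (-0.19), IFT140 (-0.019), IFT43 (-0.20) and IFT57 (-0.14). No member's FSS response was reversed with a call on either side. CEP128 in DAOY, at an adjusted p of 0.0505, was called lower in 10 of 20 alternatives. Leaving out 1 library gave a call to CEP97 in ONS76 (without FSS library 3, adjusted p = 0.0442), to CEP68 in DAOY (without static library 1, 0.0455), and for the difference of responses to BBS2 (without DAOY FSS library 2, 0.0387) and CEP128 (without ONS76 static library 1, 0.0238).

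Replicate numbers showed no strong pairing in expression. Deviations of same-numbered FSS and static libraries correlated at -0.015 to 0.041 in ONS76 and -0.099 to 0.078 in DAOY. Such values cannot tell whether same-numbered cultures were set up together. With a replicate block, 25 members fell and 8 rose in DAOY, 16 fell and 5 rose in ONS76, and 11 and 2 differed between the lines. Under the block CEP89 in DAOY and, for the difference, CEP44 and CEP85 lost their calls, CEP128 in DAOY gained one, and no other member's call changed.

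Counts of 0 may come from the counting rule, and TPM carry no separate measurement error. The size of difference that can be called varies by gene with its depth and spread: in DAOY CEP89 was called at -0.13, and CEP68 at -0.36 was not.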

Other observations

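Transcription factors of ciliary genes and genes of the motile axoneme showed single changes. Of 9 tested factors, 2 rose and 2 fell in DAOY, and 1 rose and 2 fell in ONS76. Among all tested genes 19.5% rose and 20.1% fell in DAOY, and 14.1% rose and 13.9% fell in ONS76. FOXJ1, the factor that drives motile ciliogenesis, averaged 1.51 CPM in DAOY under FSS and 0.480 CPM static (log2 fold change 1.64, SE 0.35, edgeR adjusted p = 2.71e-04). RFX3, an activator of ciliary genes, averaged 75.8 CPM in ONS76 under FSS and 58.6 CPM static (log2 fold change 0.37, SE 0.051, edgeR adjusted p = 8.77e-07) and was not called in DAOY (-0.11). The difference between these RFX3 responses was called (-0.48, DAOY minus ONS76). RFX1 rose in DAOY (0.26) and was not called in ONS76. TP73, a p53 relative with a role in multiciliated cells, fell in both lines (-0.56 in DAOY and -0.17 in ONS76).

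Of 11 tested axoneme genes, 2 fell and 1 rose in DAOY, beside 20.1% and 19.5% of all genes. In ONS76 1 fell and 1 rose, beside 13.9% and 14.1%. DNAH11, an outer dynein arm heavy chain, fell in DAOY (log2 fold change -0.37, SE 0.069, edgeR adjusted p = 5.42e-05) and rose in ONS76 (0.44, SE 0.065, edgeR adjusted p = 2.41e-06). Among centriole genes under other symbols, NIN and C2CD3 also fell in DAOY (-0.38 and -0.32) and rose in ONS76 (0.22 and 0.34). The ciliary phosphatase INPP5E rose in DAOY (0.24), while GPR161, a ciliary receptor that restrains Hedgehog signalling, rose in ONS76 (0.36, edgeR adjusted p = 1.23e-06). These genes were picked out after their values were seen.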
